A study of Homo sapiens with 6 samples.

Results

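The 28 genes described here encode proteins of the small subunit of the cytosolic ribosome. They were taken by symbol from the deposited expression table, where they are 28 of the 36932 rows with a gene symbol of their own. Some further proteins of the subunit are not among them and are not analysed here. Messenger RNA was sequenced in bulk from MDA-MB-231, an established human line of triple negative breast cancer with a mesenchymal character. DDX18, a nucleolar RNA helicase with a part in building the large ribosomal subunit, was knocked down in 4 of the 6 libraries, and the series asked how the transcriptome changed. The libraries form 3 groups of 2: colony 2 with DDX18 knocked down, colony 1 with DDX18 knocked down, and control cells. How the knockdown was made, whether a colony was grown from a single cell, and what the control cells received is not stated in the sources used here.

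The small subunit binds the messenger RNA, scans it for a start codon and holds it while codons are read. It consists of a head and a body joined by a neck, with a platform on the side where the mRNA leaves, and its proteins are made in the cytoplasm, carried into the nucleolus and fitted onto the ribosomal RNA there. A finished subunit holds its proteins in equal number, and their genes are usually expressed together. The mRNAs of most ribosomal proteins begin with a C followed by a run of pyrimidines, the 5′ terminal oligopyrimidine (TOP) tract, through which the mTOR kinase and the protein LARP1 control their translation and stability. Several of the genes are mutated in Diamond-Blackfan anaemia, an inherited failure of red cell production.

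The following sequences show such starts for members named in the results below, including RPS15 and RPS26 whose windows hold no tract. Each runs 5′ to 3′ on the gene's own strand, from 10 bases before to 20 bases after the annotated start in RefSeq on GRCh38.p14, except that of RPS29. Its RefSeq window, annotated from another start, holds no tract, and the first 20 bases of its GENCODE release 29 transcript on GRCh38 are shown instead. By the GENCODE starts, 8 of 27 members held a tract, and FAU, RPS3, RPS27A and RPS7 held none, so the marking depends on the annotated start. Capitals mark a C within 5 bases of the start with at least 4 more C or T directly after it, searched on the gene's strand. They stand at chr14:49586357-49586376 on the minus strand (RPS29), chr11:65122115-65122144 on the minus strand (FAU), chr1:153990752-153990781 on the plus strand (RPS27), chr2:55232678-55232707 on the plus strand (RPS27A), chr11:75399508-75399537 on the plus strand (RPS3), chr11:119018324-119018353 on the minus strand (RPS25), chr19:8321486-8321515 on the plus strand (RPS28), chr2:3575250-3575279 on the plus strand (RPS7), chr19:1438386-1438415 on the plus strand (RPS15) and chr12:56041908-56041937 on the plus strand (RPS26).
RPS29: CTTTTacctcgttgcactgc
FAU: tcgcttCTTCCTCTTTCTCgactccatctt
RPS27: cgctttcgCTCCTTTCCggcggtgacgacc
RPS27A: ggcgttCTTCCTTTTCgatccgccatctgc
RPS3: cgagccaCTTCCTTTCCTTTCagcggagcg
RPS25: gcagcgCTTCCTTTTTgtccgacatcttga
RPS28: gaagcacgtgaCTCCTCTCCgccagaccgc
RPS7: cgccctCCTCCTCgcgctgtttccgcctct
RPS15: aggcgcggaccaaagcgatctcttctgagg
RPS26: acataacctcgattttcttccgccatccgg

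Of the 25 members with a RefSeq window, 21 held a tract by this rule (84%), against 29.5% of the 10606 tested genes with a window and 21.1% of all 35116 windows. The members had 28 windows between them, and a member counted if any of its windows matched. RPS27A had further windows at chr2:55231893-55231922 and chr2:55232668-55232697, neither with a tract. The large subunit list held it in 33 of 38. The 4 windows without a match belonged to RPS4X, RPS15, RPS26 and RPS29, and RPS2, RPS15A and RPS20 had no window. The match says which letters stand at an annotated start, and no binding or translation was measured.

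The libraries were of like depth, as far as the values show it. The smallest step between values implied 11902437 and 8843847 reads for colony 2, 9768470 and 9751200 for colony 1, and 9561782 and 9748680 for control, so that 1 read was worth 0.0815 to 0.108 CPM (reads of a gene scaled to library size). DDX18 stood at 14.7 and 15.1 CPM in colony 2, at 17.6 and 14.04 CPM in colony 1, and at 78.8 and 91.7 CPM in control, as the labels say. VIM averaged 1756, 1771 and 1769 CPM in colony 2, colony 1 and control, as in a mesenchymal line. ESR1 and PGR lay at or under 0.10 CPM in each group, as in a line without these receptors. CD44, AXL and ZEB1, also listed as present in the line, averaged 593, 1004 and 63.1 CPM in control. SPARC of that list averaged 2.27 CPM in control and was called lower in colony 2 (0.447 CPM) and colony 1 (0.453 CPM). Of the genes listed as low, ERBB2, GATA3, EPCAM and CDH1 averaged 129, 24.98, 16.6 and 1.82 CPM in control. The markers of the line were thus met only in part. Of 26 marker genes of this and other cell types, 16 passed the filter on low values, and none was called by limma between colony 2 and colony 1 (2 had an unadjusted p under 0.05). Against control, 5 of the 16 were higher and 5 lower in colony 2, and likewise in colony 1. The fibroblast genes COL1A1, COL1A2 and LUM were lower in both (log2 −1.48, −1.27 and −1.62 in colony 2, and −1.27, −1.24 and −1.74 in colony 1), while DCN averaged at most 0.051 CPM in each group. KDR of endothelium was higher (1.40 in colony 2 and 1.42 in colony 1) with CDH5 averaging at most 0.10 CPM. Of the HEK293 list, GATA2 was higher (0.89 in colony 2 and 0.42 in colony 1) and LIN28B lay at 0. ZIC2 of that list was higher in colony 2 (0.72, adjusted p = 0.0052 by limma) and not called in colony 1 (0.40). These markers move with every comparison of a colony with control below, and their part in those results was not tested.

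The 28 genes summed to 9858 and 10330 CPM in colony 2, 12078 and 12162 CPM in colony 1, and 11306 and 11819 CPM in control. Colony 2 lay below both other groups without overlap, and both colony 1 libraries lay above both controls. The means were 10094 ± 334 CPM in colony 2, 12120 ± 59.6 CPM in colony 1 and 11563 ± 362 CPM in control (SD, n = 2 each). Of the CPM in rows with a symbol of their own, the members held 1.04% and 1.11% in the colony 2 libraries, 1.26% and 1.27% in colony 1, and 1.19% and 1.24% in control. Values in CPM are shares of a library, and in bulk RNA fewer cells of a type and less RNA per cell cannot be told apart. Nothing in the labels says that the 2 replicates of a group came from separate cultures. The p-values below therefore speak for these 6 libraries alone. They rest on the spread between the 2 libraries within each group, with information shared across genes, and that spread may be technical.

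Taken singly, the colony 2 libraries had 24 and 21 of the 28 members below both controls, where 40.2% and 42.7% of all tested genes were, and 2 and 5 above both, where 43.2% and 42.2% were. The colony 1 libraries had 3 and 7 members below both controls, against 40.1% and 40.7% of all genes, and 16 and 15 above both, against 42.7% and 43.6%. The median member stood at −0.21 and −0.17 in the colony 2 libraries, at 0.08 and 0.03 in those of colony 1, and at −0.04 and 0.03 in the controls, on log2(CPM + 1) against the mean of the controls. RPS29 was the lowest member in both colony 2 libraries (−1.53 and −1.12) and RPS28 the highest (0.22 and 0.31). RPS9 was the lowest member in both colony 1 libraries (−0.33 and −0.31) and RPS20 the highest (0.32 and 0.43).

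**Figure D1:**
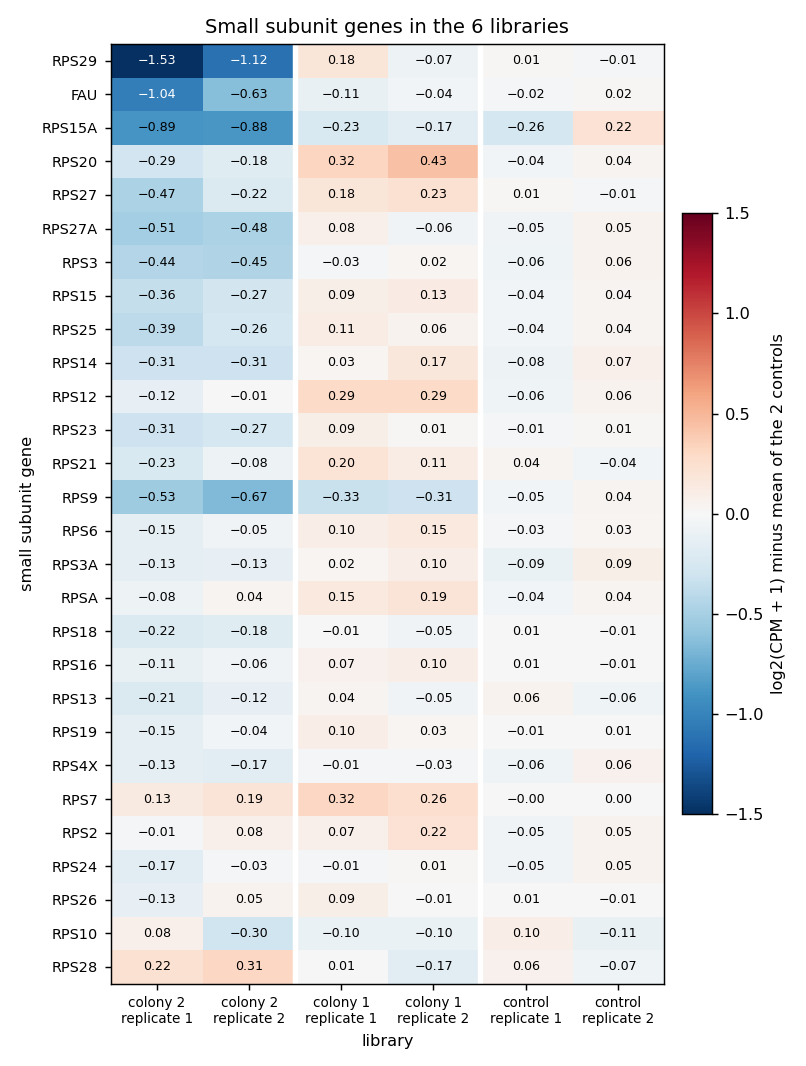
Each row is a small subunit gene, each column a library, and each cell gives log2(CPM + 1) minus the mean of the 2 controls, blue below and red above. Rows are sorted by colony 2 minus colony 1, from RPS29 (−1.38) at the top to RPS28 (0.35) at the bottom. Most cells of colony 2 are blue. Colony 1 has mostly pale red cells, with the deepest blue at RPS9 and paler blue at others, among them RPS15A, RPS10, FAU, RPS18 and RPS4X.

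All 28 members had a mean of at least 1 CPM and were tested, with limma across all 13675 genes that passed this filter. Called means an adjusted p under 0.05 by the Benjamini-Hochberg method over those genes. Between the colonies, 14 of 28 members were lower in colony 2 than in colony 1, where 1.65% of all tested genes were, and RPS28 was higher, where 0.629% of all genes were. The median member stood at −0.25 (log2, colony 2 minus colony 1), against −0.003 over all genes tested. Both colony 2 libraries were below both colony 1 libraries for 24 of the 28 members, against 23.0% of all genes, and above them for RPS28 alone, against 20.9% of all genes. RPS2, RPS10 and RPS26 overlapped. The 14 members were 6.19% of the 226 genes called lower, and with 21 of the 47 large subunit genes, whose median was −0.23, ribosomal proteins were 15.5% of them.

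Against control, colony 2 had 14 members lower and 2 higher, where 19.8% and 20.5% of all genes were lower and higher, with a median member of −0.16. Colony 1 had 1 member lower and 5 higher, where 18.3% and 21.1% of all genes were, with a median of 0.06. For the mean of both colonies minus control, 6 members were lower and 1 was higher, where 21.5% and 23.2% of all genes were, with a median of −0.08. That last comparison averages colonies that differ from each other, and with the 4 knockdown libraries fitted as 1 group RPS9 was the 1 member still called lower and RPS7 the 1 called higher. With the replicate number as a block, for which the labels give no reason beyond the shared numbers, 11 members were lower and 3 higher for both colonies minus control, 8 were higher in colony 1 against control, and 21 were lower in colony 2 than in colony 1. The 7 members called by this fit alone between the colonies were RPS3A, RPS6, RPS13, RPS16, RPS18, RPS19 and RPSA (adjusted p from 4.68e-04 to 0.041 by limma). Against control it added RPS2, RPS6 and RPS21 as higher in colony 1, and RPS3A, RPS13 and RPS21 as lower in colony 2. The share of all tested genes called with the block is not given, so these counts cannot be set beside the shares above. The 4 comparisons share libraries, so their values stand side by side and are not independent of each other.

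**Figure D2:**
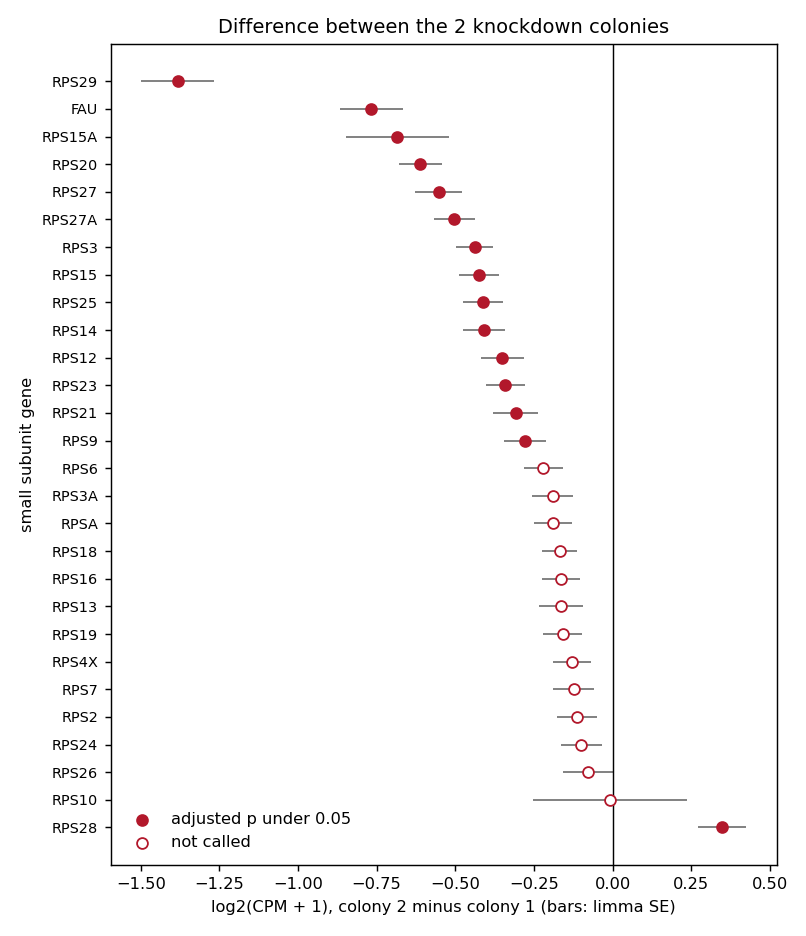
Points give the difference of each small subunit gene on log2(CPM + 1), colony 2 minus colony 1, with limma's standard error as bars; filled points passed an adjusted p under 0.05. The changes run from −1.38 (RPS29) to 0.35 (RPS28), and the 14 filled points below 0 end with RPS9 at −0.28.

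RPS29, a small zinc-binding protein of the head, differed most. It had 50.9 and 67.9 CPM in colony 2, 170 and 142 CPM in colony 1, and 151 and 148 CPM in control. Both colony 2 libraries lay below the other 4, and colony 1 lay on both sides of the controls. RPS29 fell 2.61-fold in colony 2 against colony 1 (log2 −1.38, SE 0.12, adjusted p = 1.18e-05), the fifth largest fall among the 226 genes called lower, and 2.51-fold in colony 2 against control (adjusted p = 4.60e-07). Its value for colony 1 minus control was 0.06 (adjusted p = 0.746). The mean of both colonies against control (−0.64) was not called with the knockdown libraries as 1 group (adjusted p = 0.470, in a range of 1.36e-09 to 0.470 over its alternatives). Its gene overlaps LRR1 on the other strand, at 28.9 CPM on average, which was higher in both colonies (log2 0.55 in colony 2 and 0.63 in colony 1, against control).

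FAU encodes a ubiquitin-like protein fused to the ribosomal protein eS30, which sits where mRNA enters the subunit. It had 49.4 and 65.7 CPM in colony 2, 95.2 and 100.1 CPM in colony 1, and 101.1 and 104.1 CPM in control. Colony 2 lay below the other groups without overlap. FAU fell 1.70-fold in colony 2 against colony 1 (log2 −0.77, SE 0.10, adjusted p = 3.31e-05) and 1.79-fold against control (adjusted p = 3.49e-07), and stood at −0.07 in colony 1 against control (adjusted p = 0.609). RPS27A, the other member made as a fusion, here with ubiquitin itself, belongs to the beak of the head. It had 286 and 291 CPM in colony 2, 429 and 391 CPM in colony 1, and 391 and 421 CPM in control. RPS27A fell 1.42-fold in colony 2 against colony 1 (log2 −0.50, adjusted p = 2.75e-05), and its 0.01 in colony 1 against control was not called (adjusted p = 0.910).

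Besides FAU, RPS3 and RPS2 line the mRNA entry. RPS3, which like RPS2 is ubiquitylated by RNF10 on stalled subunits, had 640 and 637 CPM in colony 2, 849 and 882 CPM in colony 1, and 832 and 902 CPM in control. Its 2 colony 2 libraries were nearly equal and below all others. RPS3 fell by 0.44 on the log2 scale in colony 2 against colony 1 (adjusted p = 3.78e-05) and by 0.44 against control (adjusted p = 1.49e-06). RPS2, its neighbour, had 780 and 829 CPM in colony 2, 828 and 914 CPM in colony 1, and 760 and 814 CPM in control, and was called in no comparison without the block, and with it as higher in colony 1 against control (adjusted p = 0.00429) and for both colonies minus control (0.0446) (−0.11 for colony 2 minus colony 1, adjusted p = 0.446).

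RPS20 and RPS10 are the head proteins that ZNF598 ubiquitylates when ribosomes collide. RPS20 had 208 and 225 CPM in colony 2, 318 and 344 CPM in colony 1, and 247 and 261 CPM in control. The colonies lay on opposite sides of the controls with no overlap. RPS20 rose in colony 1 against control (log2 0.38, SE 0.07, adjusted p = 8.37e-05), fell in colony 2 against control (−0.23, adjusted p = 0.0086), and differed by −0.61 between colony 2 and colony 1 (adjusted p = 3.18e-06). RPS27, a zinc-binding protein near the platform, went the same 2 ways, with 201 and 240 CPM in colony 2, 318 and 328 CPM in colony 1, and 282 and 277 CPM in control. Its changes were 0.21 for colony 1 minus control (adjusted p = 0.0281), −0.35 for colony 2 minus control and −0.55 for colony 2 minus colony 1 (adjusted p = 3.34e-05). The rise of RPS27 in colony 1 lost its call when control replicate 1, control replicate 2 or colony 1 replicate 2 was left out, with median centring and with the length trend removed (adjusted p up to 0.128). RPS27L, its paralog, stood at 37.0 and 39.5 CPM in colony 2, 41.6 and 40.2 CPM in colony 1, and 37.4 and 37.1 CPM in control and was not called (−0.10 for colony 2 minus colony 1, adjusted p = 0.761).

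RPS12, of the beak, had 249 and 270 CPM in colony 2, 331 and 331 CPM in colony 1, and 260 and 283 CPM in control. Colony 1 lay above the other groups, which overlapped. RPS12 rose in colony 1 against control (0.29, adjusted p = 0.0014) and was lower in colony 2 than in colony 1 (−0.35, adjusted p = 0.0029), while colony 2 minus control was −0.06 (adjusted p = 0.480). RPSA, the laminin receptor protein at the mRNA exit, had 632 and 688 CPM in colony 2, 742 and 762 CPM in colony 1, and 650 and 688 CPM in control. Colony 1 lay above the other groups, which overlapped. RPSA was called for colony 1 against control (0.17, adjusted p = 0.0303), a call lost without control replicate 1 or colony 1 replicate 2, with median centring and with length trends removed (adjusted p up to 0.225), and not for colony 2 minus colony 1 (−0.19, adjusted p = 0.117).

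**Figure D3:**
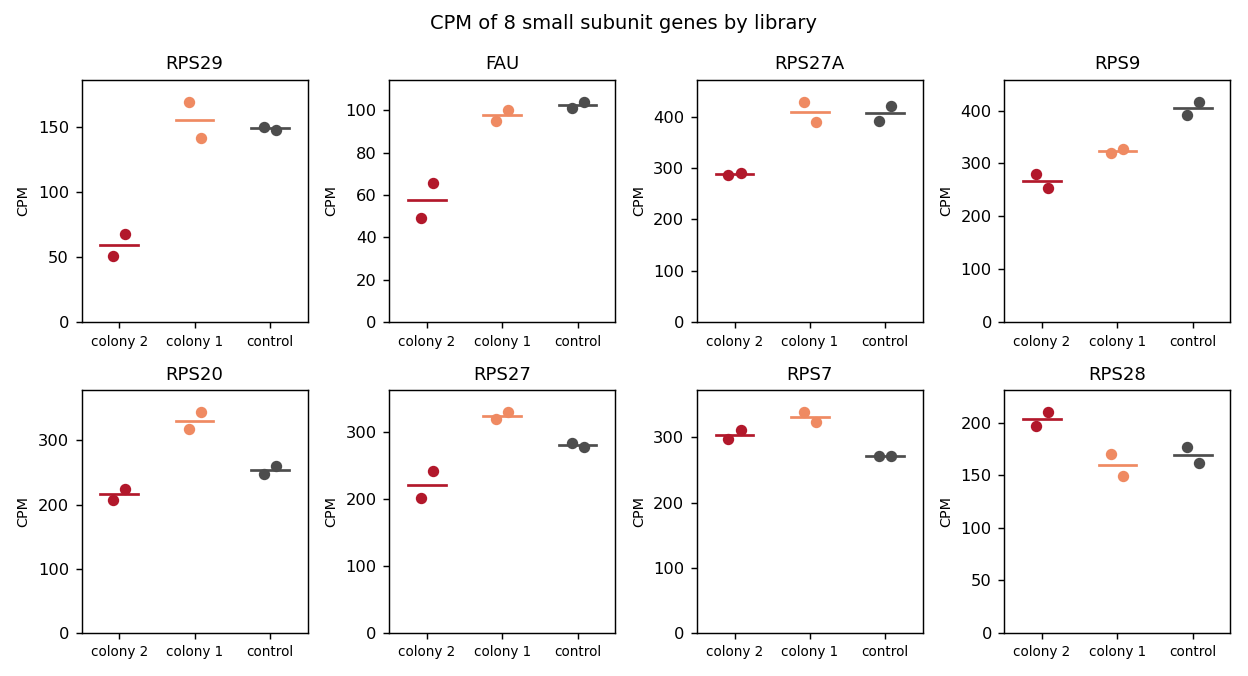
CPM of 8 small subunit genes in colony 2, colony 1 and control, each point a library and each line the mean of 2. RPS29, FAU and RPS27A are low in colony 2 alone, RPS9 is low in both colonies, RPS20 and RPS27 lie below control in colony 2 and above it in colony 1, RPS7 is above control in both, and RPS28 is high in colony 2.

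RPS9, a body protein whose bacterial counterpart affects the accuracy of decoding, was the 1 member called lower in both colonies. It had 280 and 254 CPM in colony 2, 320 and 327 CPM in colony 1, and 391 and 417 CPM in control. The 3 groups did not overlap, and colony 2 was lowest. RPS9 fell by 0.60 in colony 2 (adjusted p = 6.94e-08) and by 0.32 in colony 1 (adjusted p = 4.01e-04), both against control, and the colonies differed by −0.28 (adjusted p = 0.0216). These calls against control held under each alternative run. Of all tested genes, 19.8% were lower in colony 2 and 18.3% in colony 1, and the share lower in both is not given.

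RPS7, a body protein that also binds MDM2 when ribosome assembly fails, was the 1 member called higher in both colonies. It had 297 and 311 CPM in colony 2, 338 and 324 CPM in colony 1, and 272 and 272 CPM in control. Both colonies lay above the nearly equal controls, by 0.16 in colony 2 (adjusted p = 0.0465) and by 0.29 in colony 1 (adjusted p = 8.63e-04). The call in colony 2 was lost when any of the 6 libraries was left out, with no filter on low values and with median centring (adjusted p up to 0.273), and colony 2 minus colony 1 was −0.12 (adjusted p = 0.404). Of all tested genes, 20.5% were higher in colony 2 than in control and 21.1% in colony 1, and the share higher in both is not given.

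RPS28 stands at the mRNA exit between head and platform, and was the 1 member higher in colony 2 than in colony 1. It had 197 and 210 CPM in colony 2, 170 and 150 CPM in colony 1, and 176 and 161 CPM in control. Colony 2 lay above both other groups, which overlapped. RPS28 rose by 0.35 against colony 1 (SE 0.08, adjusted p = 0.0096) and by 0.27 against control (adjusted p = 0.0062). The first call was lost without colony 1 replicate 2 (0.26, adjusted p = 0.211) or colony 2 replicate 2 (0.31, adjusted p = 0.147), with a range of 3.89e-06 to 0.211 over its alternatives. Without control replicate 2 or colony 2 replicate 2, the second was lost too (adjusted p up to 0.0799).

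The other members of the head were RPS15, RPS16, RPS18, RPS19 and RPS25. RPS15, which takes part in exporting the subunit from the nucleus, and RPS25, used by viral internal ribosome entry sites, were lower in colony 2 than in colony 1 (−0.42, adjusted p = 1.06e-04, and −0.41, adjusted p = 2.30e-04). RPS15 had 379 and 404 CPM in colony 2, 519 and 532 CPM in colony 1, and 474 and 501 CPM in control. RPS25 had 362 and 397 CPM in colony 2, 514 and 495 CPM in colony 1, and 463 and 489 CPM in control. In both genes colony 2 lay below the other groups, and colony 1 was not called against control. RPS16, RPS18 and RPS19, of which RPS19 is the gene most often mutated in Diamond-Blackfan anaemia, had differences of −0.16, −0.17 and −0.16 between the colonies, none of them called. RPS16, near the subunit's P site, had 452 and 469 CPM in colony 2, 511 and 522 CPM in colony 1, and 492 and 484 CPM in control. RPS18 had 908 and 932 CPM in colony 2, 1050 and 1019 CPM in colony 1, and 1060 and 1050 CPM in control, and was lower in colony 2 than in control (−0.20, adjusted p = 0.0064). In both genes colony 2 was below every other library. RPS19 had 451 and 485 CPM in colony 2, 535 and 509 CPM in colony 1, and 496 and 501 CPM in control.

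Of the body and platform, RPS14, a platform protein whose gene lies in the chromosome arm segment lost in a form of myelodysplastic syndrome, had 381 and 383 CPM in colony 2, 482 and 533 CPM in colony 1, and 449 and 498 CPM in control. It was lower in colony 2 than in colony 1 (−0.41, adjusted p = 4.24e-04) and than in control (−0.31, adjusted p = 5.76e-04). RPS23, whose loop reaches into the decoding centre, had 362 and 373 CPM in colony 2, 478 and 454 CPM in colony 1, and 445 and 453 CPM in control (−0.34 for colony 2 minus colony 1, adjusted p = 0.0014). In both genes colony 2 was below every other library. RPS21, which sits near RPSA, differed between the colonies (−0.31, adjusted p = 0.0179), with 168 and 187 CPM in colony 2 and 227 and 213 CPM in colony 1, and stood at 203 and 192 CPM in control.

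The remaining body and platform members were RPS3A, RPS4X, RPS6, RPS13, RPS24 and RPS26, and none was called between the colonies, with values from −0.22 (RPS6) to −0.08 (RPS26). RPS6, the target of S6 kinase downstream of mTOR, had 460 and 492 CPM in colony 2, 544 and 565 CPM in colony 1, and 498 and 520 CPM in control, and its −0.22 had an adjusted p of 0.0596. Both of its colony 2 libraries were below both controls, and both of colony 1 above. RPS4X, the X-linked form of its protein, had 661 and 646 CPM in colony 2, 719 and 711 CPM in colony 1, and 694 and 757 CPM in control, and was called lower in colony 2 than in control (−0.15, adjusted p = 0.0493). RPS3A had 661 and 663 CPM in colony 2, 736 and 775 CPM in colony 1, and 678 and 770 CPM in control. For RPS4X and RPS3A colony 2 lay below all other libraries, and colony 1 overlapped the controls. RPS13 had 234 and 249 CPM in colony 2, 279 and 262 CPM in colony 1, and 283 and 260 CPM in control, and RPS24, mutated in some cases of Diamond-Blackfan anaemia, had 404 and 446 CPM in colony 2, 450 and 459 CPM in colony 1, and 438 and 472 CPM in control. Colony 2 was lowest for RPS13 and overlapped the controls for RPS24. RPS26, which is carried by TSR2 and contacts the mRNA upstream of the start codon, had 92.2 and 105 CPM in colony 2, 107 and 100.3 CPM in colony 1, and 101.1 and 100.4 CPM in control, with all 3 groups overlapping.

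RPS15A and RPS10 were the lowest members, and rows of their pseudogenes were high relative to them. RPS15A, a body protein, had 9.2 and 9.3 CPM in colony 2, 15.2 and 15.8 CPM in colony 1, and 14.8 and 21.0 CPM in control. Colony 2 was lowest, with −0.68 for colony 2 minus colony 1 (SE 0.16, adjusted p = 0.0203) and −0.86 for colony 2 minus control (adjusted p = 1.23e-04). Rows named as pseudogenes of RPS15A held 3.18 and 2.81 CPM in colony 2, 0.905 and 0.707 CPM in colony 1, and 1.12 and 1.60 CPM in control, highest in colony 2 where RPS15A was lowest. With these rows added the difference between the colonies was −0.38 and no longer called (adjusted p = 0.249, in a range of 6.77e-04 to 0.249 over its alternatives). The call was also lost when any 1 of the 4 knockdown libraries was left out (adjusted p from 0.0506 to 0.110) and with the length trend removed (0.0699). RPS10 had 3.1 and 2.2 CPM in colony 2, 2.6 and 2.6 CPM in colony 1, and 3.2 and 2.6 CPM in control, with pseudogene rows at 67.4% of its own level on average, and was called nowhere. Its gene overlaps RPS10-NUDT3 on the same strand, which averaged 0 CPM. How reads shared by these genes were counted is not given, and the part of this overlap in the low level of RPS10 was not tested.

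Among the other 26 members, rows named as pseudogenes averaged at most 1.04% of a member's own CPM over the 6 libraries. Overlapping genes are a second source of shared reads, since the handling of strand is not given in the sources used here. SH3D19, on the strand opposite RPS3A, averaged 556 CPM and changed by −0.26 between colony 2 and colony 1, against −0.19 for RPS3A. ATG10, on the strand opposite RPS23, averaged 372 CPM and changed by −0.44, against −0.34 for RPS23. The reads of these pairs cannot be told apart. For FAU, the overlapping SYVN1 (0.17) and MRPL49 (−0.15) were not called between the colonies.

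Per kilobase of coding sequence, RPS18 was the highest member in each group, with 2018 CPM per kb in colony 2, 2268 in colony 1 and 2314 in control. RPS10 (5.3, 5.3 and 5.8 CPM per kb in colony 2, colony 1 and control), RPS15A (23.7, 39.7 and 45.9), FAU (144, 245 and 257) and RPS26 (285, 301 and 292) were the lowest in control. The remaining 23 members lay between 467 (RPS7) and 1269 (RPS25) CPM per coding kb in control. Per kilobase of the whole annotated transcript, RPS18 was again the highest in control (1721). On that scale RPS28 and RPS23 stood at 127 and 131 in control, close to FAU at 121, against 815 and 1047 per coding kb. Ranks on either scale depend on the transcript model and on reads shared with other genes.

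Across the 28 members, the change between colony 2 and colony 1 had a Spearman rho of 0.26 with annotated transcript length, 0.29 with coding length, 0.10 with GC content and 0.14 with the CPM in control. These describe genes of the same 4 libraries and carry no p. By region, 7 of 12 head members were lower in colony 2 (median −0.38), against 7 of 16 of the body and platform (median −0.21). Of the 21 members with a pyrimidine tract by the RefSeq windows 10 were lower and RPS28 higher (median −0.22), against 2 of the 4 with a window and no tract (median −0.28). This split depends on the annotated start. RPS29 counts among those 4 but holds a tract by its GENCODE start, while FAU, RPS3 and RPS27A hold none by theirs. The introns of some ribosomal protein genes hold small nucleolar RNAs, which guide the modification of ribosomal RNA. Of the 7 members with such a gene inside 3 were lower (median −0.19), against 11 of the other 21 (median −0.28). Among other coding genes, 1.43% of 2863 with a tract and 1.29% of 6898 without one were lower in colony 2 than in colony 1.

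Short transcripts of other coding genes were also lower in colony 2 more often than long ones. Of 17 other coding genes with a transcript up to 400 nt 6 were lower in colony 2 than in colony 1 (35.3%, median −0.10), of 42 between 400 and 500 nt 4 were (9.52%, median −0.10), and of 88 between 500 and 600 nt 12 were (13.6%, median −0.04). The next classes had 9.31% lower up to 800 nt (median −0.08), 5.08% up to 1000 nt (−0.10), 2.30% up to 2000 nt (−0.05), 0.317% up to 4000 nt (−0.01) and 0.142% above it (0.05). Neither the shares nor the medians were ordered by length among the classes up to 1000 nt. Of 125 other coding genes up to 1000 nt and above 100 CPM, 28 were lower (22.4%, median −0.12) and 2 higher. They were not matched to the members gene by gene, and some members, such as RPS23 (3437 nt) and RPS10 (2.88 CPM in control), lie outside these bounds. With the trend in transcript length removed from each library, 11 members remained lower in colony 2 than in colony 1, with a median of −0.18 and RPS29 at −1.31. The share of all tested genes called after that removal is not given. The median member lay below that of other short genes, and whether transcript length has a part in the members' difference was not tested beyond this.

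**Figure D4:**
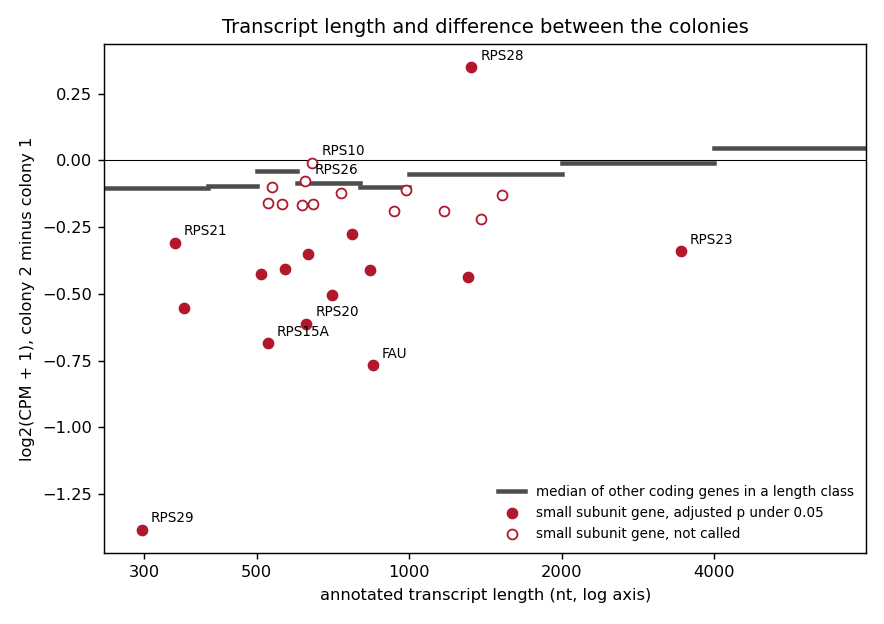
Change between colony 2 and colony 1 on log2(CPM + 1) against annotated transcript length on a log axis, each point a small subunit gene and each bar the median of other coding genes in a length class; the last class extends past the axis. Bars lie between −0.10 and −0.04 in the classes up to 1000 nt and at 0.05 in the longest, most members lie below the bar of their class, and RPS29, the shortest at 296 nt, lies lowest.

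**Figure D5:**
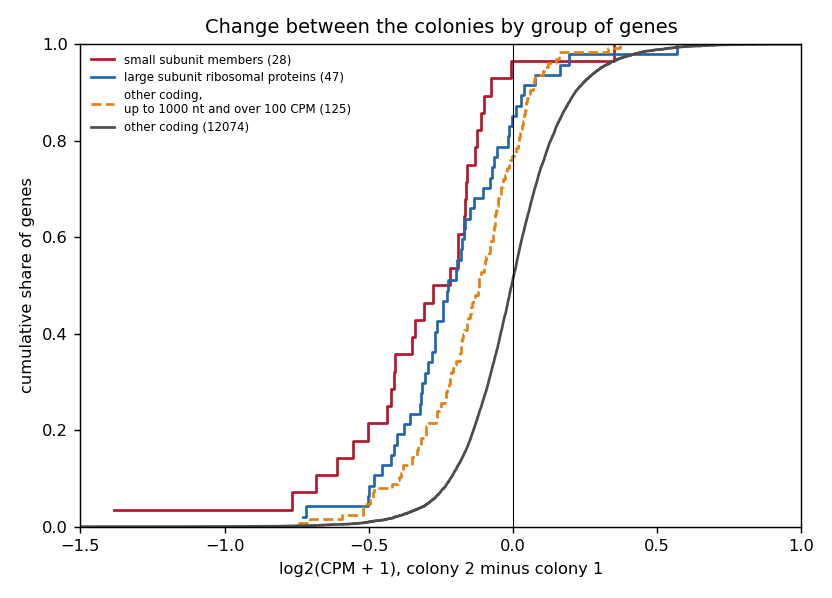
Cumulative share of genes by change on log2(CPM + 1), colony 2 minus colony 1, for the small subunit genes, the large subunit genes, other coding genes up to 1000 nt and above 100 CPM, and all other coding genes. Medians are −0.25, −0.23, −0.12 and near 0, and the small subunit curve crosses to the right of 0 at RPS28 alone.

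Genes that work with the small subunit gave other counts. Of 43 factors that assemble it, 11 were higher in colony 2 against control (25.6%, against 20.5% of all genes), and 18 were higher (41.9%, against 21.1%) and 1 lower in colony 1 against control. PNO1, which holds the precursor of the small subunit's RNA before the last cut, averaged 33.2 CPM in colony 2, 39.8 CPM in colony 1 and 22.5 CPM in control (0.54 and 0.80 in colony 2 and colony 1 against control), and DHX37, a helicase of the early precursor, was higher in both as well (0.55 and 0.67). NAT10, which acetylates that RNA, was lower in colony 1 (−0.22). None of the 43 was called by limma between colony 2 and colony 1 (3 with an unadjusted p under 0.05; median −0.09).

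Of 6 proteins that escort single small subunit proteins, 4 were higher for both colonies minus control (66.7%, against 23.2% of all genes), among them LTV1, which escorts RPS3 and RPS20 (0.49), and PRMT3, which methylates RPS2 (0.32). Of 9 genes that add or remove ubiquitin on the subunit or act with them, USP16 (0.71) and ZNF598 (0.51) were higher (22.2%, against 23.2% of all genes) and 3 were lower (33.3%, against 21.5%), RIOK3 by the most (−0.36). Of 21 initiation factors 4 were higher, led by EIF1AX (0.98) and EIF5 (0.82), which act in start codon selection, and 4 lower, with EIF2S2 at −0.27. Both shares lie below those of all genes (23.2% higher and 21.5% lower). None of these 3 groups had a member called by limma between the colonies (2, 0 and 7 had an unadjusted p under 0.05).

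Genes that control TOP mRNAs were not called between the colonies (0 of 15 by limma, 3 with an unadjusted p under 0.05). For both colonies minus control, 6 were higher (40.0%, against 23.2% of all genes), led by MLST8 (0.63) and RHEB (0.49), both of the mTOR pathway, and EIF4EBP2 was the 1 lower (−0.43). Of 19 other RNAs that begin with a TOP tract, 3 were lower in colony 2 than in colony 1 (15.8%, against 1.65% of all genes), among them GAS5 (−0.34), and all 19 values were below 0 (median −0.12). Of 27 proteins of the mitochondrial small subunit, a separate ribosome, MRPS6 was the 1 lower (−0.49), and the median was −0.15. Of the 47 large subunit genes RPL37 (−0.73) and RPL37A (−0.72) fell the most between the colonies. GAS5, MRPS6, RPL37 and RPL37A were chosen for this comparison after their values were seen. For both colonies minus control, 3 of the 19 other TOP RNAs were higher and 6 lower (15.8% and 31.6%). The mitochondrial proteins had 7 of 27 higher and 5 lower (25.9% and 18.5%). Of the 47 large subunit genes, 4 were higher and 14 lower (8.51% and 29.8%). Over all tested genes, 23.2% were higher and 21.5% lower.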

How the data were processed

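The deposited values were CPM, read counts that the authors scaled to library size. The submitters' processing notes name Trim Galore, HISAT2 and the builds hg38 and mm10, without versions or order. For the counting program, annotation, strand setting and scaling total, nothing is given in the sources used here. Of 52142 rows, 15200 without a symbol (2.50% to 2.62% of CPM) and 10 that shared a symbol were left out. The columns summed to 956008 to 984969 CPM, and read numbers given are implied by the smallest step of each column. Columns were matched to samples through the labels' descriptions.

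The 13675 genes that averaged 1 CPM or more were fitted as log2(CPM + 1) with limma-trend (limma 3.58.1, statmod 1.5.0, R 4.3.3) over the 3 groups with a robust shared spread. Fold changes are on this scale, which understates those of weakly expressed genes. Tests were two-sided, with Benjamini-Hochberg adjustment over all tested genes and a threshold of 0.05. The fit was first tested on simulated data. The planned design gave a branch for counts and one for normalized values, and the second was used.

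Positions, lengths and GC content came from GENCODE release 29 (the shortest principal transcript with a RefSeq match), and 35012 symbols matched 1 gene. Sequences came from RefSeq (GRCh38.p14) and GENCODE.

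The members and gene lists were chosen with earlier results of these data known. Values of all 6 libraries are given for the called members with the largest changes, up to 6 lower and 4 higher for both colonies minus control and up to 5 in each direction for the other comparisons; further members are given by role. For the other TOP RNAs and the mitochondrial and large subunit proteins, only GAS5, MRPS6, RPL37 and RPL37A are named. From each other list apart from the markers, the 2 called genes with the largest change for both colonies minus control are named. So is the called gene that changed most the other way, if any. The result of 1 gene of the lists is not reported here. Alternatives varied the pseudocount, filter, centring, length and GC trends, pseudogene rows, grouping, replicate block and single libraries. Python 3.11.15 and matplotlib 3.10.9 were used for tables and figures.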

Additional observations from a re-analysis of the deposited data

Results flagged for a closer look

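The 2 knockdown colonies differed from each other in 15 members, by limma's test of colony 2 minus colony 1 (adjusted p under 0.05). Whether this is an effect of the knockdown or a difference between colonies cannot be told apart. The differences on log2(CPM + 1) were −1.38 for RPS29, −0.77 for FAU, −0.68 for RPS15A, −0.61 for RPS20, −0.55 for RPS27, −0.50 for RPS27A, −0.44 for RPS3, −0.42 for RPS15, −0.41 for RPS25, −0.41 for RPS14, −0.35 for RPS12, −0.34 for RPS23, −0.31 for RPS21, −0.28 for RPS9 and 0.35 for RPS28. The difference of RPS15A was not called with its pseudogene rows added, and that of RPS28 not without colony 1 replicate 2 or colony 2 replicate 2.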

How the results depend on the processing

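Of 371 values of the 12 named members under alternatives, 335 kept direction and call, 36 kept direction and lost the call, and none reversed. These members were named for the largest called changes of the main fit. The alternatives reuse the same libraries, so the kept directions are no independent support. The count of members lower in colony 2 than in colony 1 was 14, and 11 with the length trend removed, 11 with length and GC trends removed (an alternative chosen after seeing the data) and 11 to 15 with 1 library left out; the higher count was 1, and 0 without colony 1 replicate 2 or colony 2 replicate 2. With median centring, 12 members were lower for both colonies minus control, 3 were higher in colony 1 and 1 in colony 2, both against control. With the length trend removed 3 were higher in colony 1, with length and GC trends removed 2 were higher for both colonies, with no filter on low values 1 was higher in colony 2, and with the knockdown libraries as 1 group 1 was lower for both colonies. With 1 library left out, 3 to 6 members were higher in colony 1 (3 without control replicate 1 or colony 1 replicate 2), 0 to 1 in colony 2 (0 without control replicate 2 or colony 2 replicate 2) and 4 to 6 lower for both colonies, against control. The causes were not tested. Replicate numbers are shared by the groups, and deviations of same-numbered libraries correlated at 0.119, 0.128 and 0.159, but 2 numbers do not show that libraries were paired. With a replicate block, 11 members were lower and 3 higher for both colonies minus control, 8 were higher in colony 1, and 21 were lower in colony 2 than in colony 1. For all these alternatives the share of all tested genes called is not given. Their counts cannot be set beside the shares of the main fit. Count-based fits with edgeR and DESeq2 were foreseen and not run. The deposited CPM were whole multiples of a step in each column, but a check for whole reads did not accept 3 of the 6 columns, whose steps lie close to 0.1. With 2 libraries a group, −0.28 (RPS9) was the smallest fall called among the members between the colonies.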
